A study of Mus musculus with 9 samples.

Results

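The aryl hydrocarbon receptor pathway and 3 receptors for small metabolites were followed through 9 genes in mouse hippocampal tissue. Ahr, Arnt, Arnt2, Ahrr, Tiparp, Cyp1b1, Gpr35, Gpr84 and Ffar3 were chosen by name, as the table rows that carry these symbols, and are 9 of the 54513 genes listed. The study sequenced messenger RNA of hippocampal tissue from 9 mice, all of them kept for 12 weeks on high-fat food. In the HFD group it came with no added tryptophan and no indole-3-propionic acid. The IPA group ate the same food and had indole-3-propionic acid, which gut bacteria make from tryptophan, given in sterile saline by oral gavage each day at 100 mg/kg of body weight. The Trp group ate it with tryptophan added at 0.5% by weight. Each group had 3 mice, and there was no group on a standard diet. The labels give no strain, sex or age, and they do not say whether HFD and Trp mice were gavaged with saline. The series title names cognition, the blood-brain barrier and the short-chain fatty acid receptor FFAR3 as its subject.

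The aryl hydrocarbon receptor AHR is a transcription factor of the bHLH-PAS family that rests in the cytoplasm with heat shock proteins. It binds planar ring compounds, among them several indoles that are made from tryptophan, then enters the nucleus and pairs with ARNT or its close relative ARNT2, which is the form known from neurons. The pair binds the xenobiotic response element and induces Cyp1 enzymes together with 2 of its own brakes, the repressor AHRR and the ADP-ribosyltransferase TIPARP. GPR35, GPR84 and FFAR3 are cell surface receptors coupled to G proteins, and all are best known from immune, gut or sympathetic cells. GPR35 responds to kynurenic acid and other acids, GPR84 to medium-chain fatty acids and FFAR3 to short-chain fatty acids.

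The response element has the core GCGTG, which was searched on both strands of the 250 bases before each start site in RefSeq (GRCm38.p6). Of the 9 genes, 8 had a RefSeq window, all but Ahr, and Gpr35 had more than 1, which makes 9 windows. At least 1 core was held by 4 genes, each with a single window: Ahrr, Tiparp, Cyp1b1 and Arnt. A core was present in 28.1% of 32817 windows of the same length over all genes, and 3 or more were present in 2.77%. The windows of Ahrr and Cyp1b1 are shown because the levels of these genes are common readouts of the receptor, with the core or its reverse complement CACGC in capitals, 5′ to 3′ on the strand of the gene. The Ahrr window lies at chr13:74292332-74292581 on the minus strand and the Cyp1b1 window at chr17:79715062-79715311 on the minus strand.
Ahrr: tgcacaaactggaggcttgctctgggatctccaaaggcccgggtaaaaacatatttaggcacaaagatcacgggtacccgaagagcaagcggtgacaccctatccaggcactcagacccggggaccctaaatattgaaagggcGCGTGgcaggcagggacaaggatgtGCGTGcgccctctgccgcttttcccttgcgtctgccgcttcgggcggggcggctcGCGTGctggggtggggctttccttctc
Cyp1b1: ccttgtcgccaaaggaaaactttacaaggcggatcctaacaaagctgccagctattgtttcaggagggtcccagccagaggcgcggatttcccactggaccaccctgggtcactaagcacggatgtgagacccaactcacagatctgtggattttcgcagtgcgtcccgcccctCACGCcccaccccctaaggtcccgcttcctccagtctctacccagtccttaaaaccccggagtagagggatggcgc
Ahrr held 3 cores on its own strand, beginning 107, 82 and 27 bases before the start. Cyp1b1 held 1 core on the other strand at 76 bases, Tiparp 1 on the other strand at 170 bases and Arnt 1 on its own strand at 29 bases. These matches describe letters in a window and no binding was measured.

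The libraries held 40621084 to 50938746 counts, so that 3 counts, taken here as the limit of detection in 1 library, were worth 0.0584 to 0.0751 CPM (counts scaled to a common library total). These limits and the Poisson intervals given further on cover counting error only. The hippocampal markers Neurod6 and Wfs1 were detected in every library, with a mean over the 9 libraries of 34.2 and 20.4 FPKM, a unit that corrects for library total and gene length. They were the highest of 8 hippocampal markers, and the others had means of 0.261 to 4.63 FPKM. The striatal marker Ppp1r1b, with a mean of 280 FPKM, was higher than all of these, so the tissue also held signal that is typical of striatum. The summed level of 7 striatal markers was 506 to 1750 CPM in HFD, 1690 to 2350 CPM in IPA and 1250 to 1720 CPM in Trp. That of the 8 hippocampal markers was 228 to 331, 215 to 262 and 204 to 312 CPM. HFD 3 stood apart from the other libraries: it had the lowest striatal sum, the highest sum of 6 thalamus and habenula markers at 258 CPM and the highest sum of 6 blood markers at 2210 CPM. Main values for Arnt2, Hif3a, Npas4, Cyp1b1, Ffar3 and Hcar1, which moved without this library, are also given without it. The blood sum was higher in all HFD libraries: 571 to 2210 CPM in HFD, 248 to 399 CPM in IPA and 234 to 383 CPM in Trp. Of the 6 blood markers, 0 were positive in Trp or IPA against HFD, with medians of -1.83 and -1.9 log2, and 0 passed. Leaving out HFD 3 does not remove this difference, and the part of blood in the results was not tested.

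Per length, Arnt2 was by far the most abundant of the 9 genes and the metabolite receptors and Ahrr were the lowest. Mean FPKM over the 9 libraries was 39.7 ± 3.51 (SD, n = 9) for Arnt2, 4.97 ± 0.618 for Tiparp, 3.33 ± 0.356 for Arnt and 1.29 ± 0.113 for Ahr. It was 0.384 ± 0.142 for Cyp1b1, 0.216 ± 0.109 for Gpr84, 0.0976 ± 0.0579 for Gpr35, 0.0828 ± 0.0754 for Ffar3 and 0.0765 ± 0.0191 for Ahrr. Arnt2 exceeded 90.9% of the 18690 genes with enough counts for a test, whereas Ahrr exceeded 2.25% and Ffar3 2.66%. The ranges of Arnt2 and Tiparp, of Arnt and Ahr, and of Ahr and Cyp1b1 did not overlap. The ranges of Tiparp and Arnt touched, but Tiparp was above Arnt in 9 of 9 libraries, and Gpr84 was likewise above Gpr35 in 9 of 9. Cyp1b1 was above Gpr84 in 7 of 9 libraries, Gpr35 above Ffar3 in 4 and Ffar3 above Ahrr in 3, so the order of the lowest 3 genes was not set apart from their spread. In bulk tissue, fewer cells of a type and less RNA per cell cannot be told apart.

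**Figure D1:**
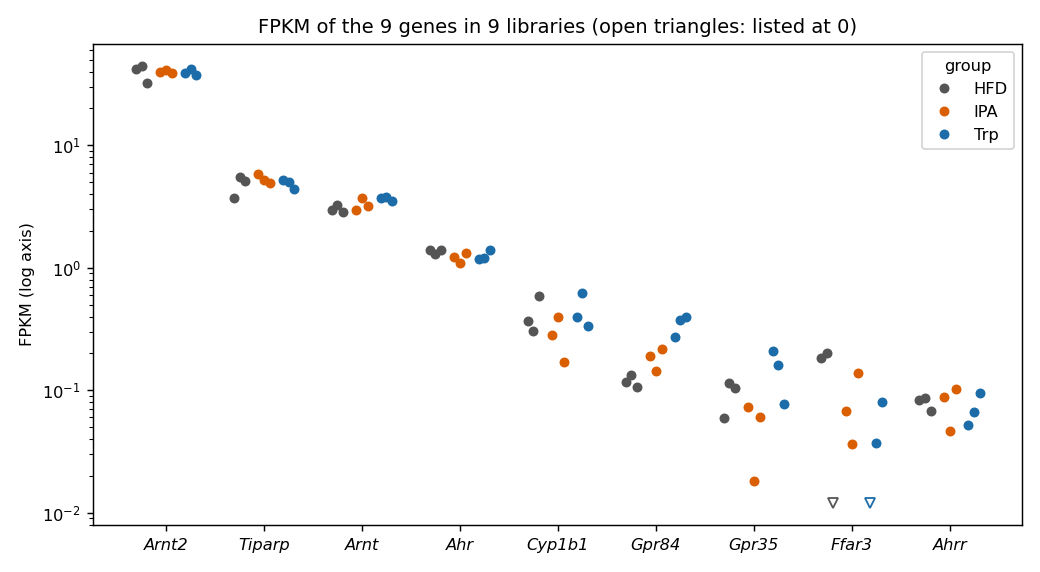
FPKM (log axis) of each of the 9 genes, with 1 point per library in 3 groups and open triangles for libraries listed at 0. Arnt2 lies between 32.3 and 44.6 in every library, and Ffar3 is listed at 0 in 1 HFD and 1 Trp library.

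Differences between the groups were tested for all 18690 genes in 1 fit with edgeR's quasi-likelihood test and Benjamini-Hochberg adjustment. No member passed an adjusted p of 0.05 in any comparison, and limma also called 0 members. DESeq2 called 0 members too, but against HFD it gave no adjusted p for Ahrr, Gpr35, Gpr84 and Ffar3. At an unadjusted p under 0.05 there was 1 member for Trp against HFD (Gpr84), 0 for IPA against HFD, and 1 between Trp and IPA (Gpr84 again). Over all genes tested, 0.342% passed for Trp against HFD, 0.00535% for IPA against HFD, and 0% between Trp and IPA. The median fitted log2 fold change of the members was -0.08, 0 and -0.03 in these comparisons, beside 0, -0.01 and 0.01 over all genes. All 9 members passed the filter on low counts, Ffar3 only through HFD 1, HFD 2 and IPA 3, the libraries where it had at least 10 counts.

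CPM values of the compared groups did not overlap for 3 members in Trp against HFD (Arnt, Gpr35 and Gpr84), where 15.5% of all genes did the same. In IPA against HFD there were 2 such members (Gpr35 and Gpr84), beside 15.2% of all genes. In Trp against IPA there were 4 (Arnt, Arnt2, Gpr35 and Gpr84), beside 11.2%. The comparisons of Trp and IPA with HFD share the HFD libraries and are not independent. In FPKM the separated members were Arnt and Gpr84 for Trp against HFD, Gpr84 for IPA against HFD, and Gpr35 and Gpr84 for Trp against IPA.

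**Figure D2:**
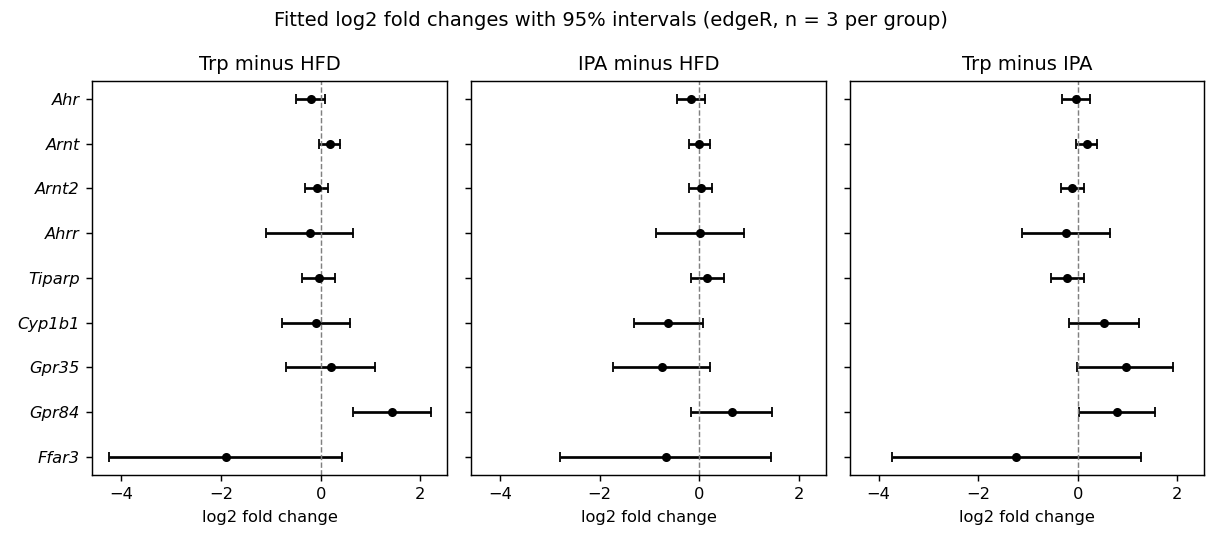
Fitted log2 fold change (x axis) of each gene in the 3 comparisons, as points with 95% intervals, n = 3 per group. Gpr84 is at 1.44 for Trp minus HFD with an interval from 0.65 to 2.22, and the Ffar3 interval in the same panel runs from -4.26 to 0.44.

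Ahr, which encodes the receptor itself (GRCm38 chr12:35497974-35535038, minus strand), was at 8.76, 8.07 and 8.98 CPM in HFD, 7.83, 6.76 and 8.39 CPM in IPA and 7.25, 7.02 and 8.18 CPM in Trp. The 3 groups overlapped. Trp against HFD gave a log2 fold change of -0.20 (SE 0.13, 95% interval -0.49 to 0.09, adjusted p = 0.626, edgeR), and IPA against HFD gave -0.17 (-0.45 to 0.12, adjusted p = 0.69). Relative to its mean, Ahr varied by 9.76% between libraries (coefficient of variation of CPM).

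Arnt, the broadly expressed partner (chr3:95434388-95497240, plus strand), was at 14.1, 15.0 and 13.7 CPM in HFD, 14.7, 14.2 and 13.8 CPM in IPA and 16.9, 16.3 and 15.3 CPM in Trp. Every Trp library was above the other 6 libraries, by a small margin. Its difference between Trp and HFD was 0.18 on the log2 scale (SE 0.10, interval -0.03 to 0.39, adjusted p = 0.523) and 0.18 (-0.03 to 0.39, adjusted p = 0.987) for Trp against IPA. For IPA against HFD it was 0 (-0.21 to 0.21). The group means were 14.2 ± 0.669, 14.2 ± 0.418 and 16.2 ± 0.825 CPM (SD, n = 3) in HFD, IPA and Trp.

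Arnt2, the partner known from neurons (chr7:84246278-84410176, minus strand), was at 285, 300 and 225 CPM in HFD, 279, 278 and 270 CPM in IPA and 260, 269 and 237 CPM in Trp. The lowest value was that of HFD 3, the library that stood apart. Arnt2 differed by -0.08 log2 (SE 0.10, interval -0.31 to 0.14, adjusted p = 0.83) between Trp and HFD and 0.03 (-0.20 to 0.26, adjusted p = 0.95) for IPA against HFD. Without HFD 3 these values were -0.197 (unadjusted p = 0.0338, adjusted p = 0.289) and -0.088 (adjusted p = 0.671), so that the sign for IPA changed. In FPKM, Arnt2 exceeded Arnt by 10.5 to 14.1 times and Ahr by 22.9 to 37.6 times within a library. Arnt exceeded Ahr by 2.02 to 3.35 times, so both partners were above the receptor per length in all 9 libraries.

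The chaperones that hold AHR in the cytoplasm were read from a list of 4 genes, among them Hsp90ab1 and Ptges3. All 4 were tested and 0 of 4 passed in each comparison. Their median was 0.11 log2 for Trp against HFD and 0 for IPA against HFD. Hsp90ab1, a cytosolic heat shock protein, was at 1220 CPM in Trp and 1110 CPM in HFD (0.13, adjusted p = 0.663). Ptges3, the p23 cochaperone, was at 148 and 167 CPM in those groups (-0.17, adjusted p = 0.738).

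ARNT and ARNT2 also pair with other bHLH-PAS proteins, and 8 genes of this kind were tested. In Trp against HFD 1 of 8 passed, and in the other 2 comparisons 0 of 8 did. The gene that rose was Hif3a, an alpha subunit of the hypoxia-inducible factors. It was at 1.73, 2.1 and 3.09 CPM in HFD, 5.78, 6.36 and 5.32 CPM in IPA and 8.67, 9.63 and 5.28 CPM in Trp. The HFD libraries were below the other 6 libraries. Its log2 fold change was 1.77 (SE 0.25, 3.41-fold, adjusted p = 0.012, edgeR) for Trp against HFD and 1.34 (SE 0.25, adjusted p = 0.142) for IPA against HFD. Without HFD 3 the value for Trp was 2.03 (adjusted p = 0.00144). The call for Trp ended without HFD 2 (adjusted p = 0.0591), without Trp 2 (0.0743), with only the 6 compared libraries (0.0877), with the replicate block (0.0541) and narrowly without Trp 1 (0.05003), while that for IPA passed without HFD 3 (0.0232) and with DESeq2 (0.000236). Beside Hif3a, the sum of 6 choroid plexus markers was 218, 136 and 704 CPM in HFD. That sum was 299, 1190 and 821 CPM in IPA and 1410, 607 and 36.9 CPM in Trp. Its part in the result was not tested.

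Npas4, an activity-induced factor of neurons, was at 28.7, 11.9 and 4.04 CPM in HFD and at 1.63, 3.50 and 3.57 CPM in IPA. In Trp it was at 6.31, 5.10 and 5.50 CPM. HFD and IPA did not overlap, Trp overlapped with HFD, and HFD 1 was the highest of all libraries. The log2 fold change for IPA against HFD was -2.36 (SE 0.70, unadjusted p = 0.0125, adjusted p = 0.369). It was -1.46 without HFD 1 (adjusted p = 0.657) and -2.80 without HFD 3 (0.0935). For Trp against HFD, Npas4 differed by -1.40 log2 (SE 0.66, unadjusted p = 0.0749, adjusted p = 0.501, edgeR). That value ran from -1.84 to -0.50 on leaving out 1 library. Npas1 was at 7.28 CPM in HFD, 6.13 CPM in IPA and 7.08 CPM in Trp (IPA against HFD -0.25, adjusted p = 0.671). The medians of the 8 genes were -0.12 for Trp against HFD and -0.11 for IPA against HFD.

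**Figure D3:**
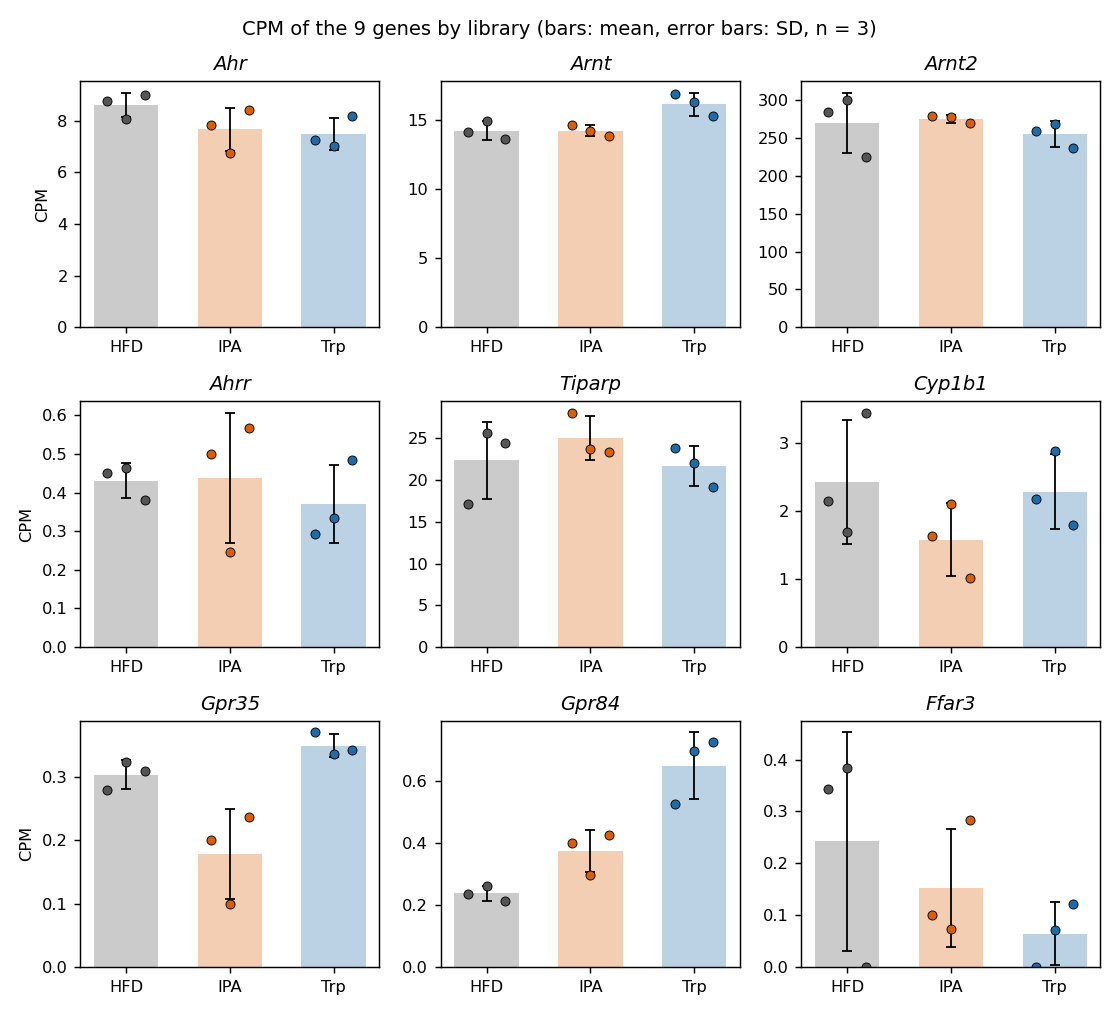
CPM of the 9 genes, 1 panel per gene with axes from 0, with points for libraries, bars for group means and error bars for SD (n = 3). The group means of Gpr84 are 0.237, 0.374 and 0.649 CPM in HFD, IPA and Trp, while Ahr, Arnt, Arnt2 and Tiparp differ little between groups for their level.

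Ahrr encodes the repressor that competes with AHR for its partner (chr13:74211118-74292331, minus strand) and had few reads. It had 21, 23 and 16 counts in HFD, 20, 10 and 24 in IPA and 15, 14 and 24 in Trp, all above the limit of 3 counts. The groups overlapped. Summed over 3 libraries the counts were 60, 54 and 53, which give 0.434 CPM (95% exact Poisson interval 0.331 to 0.558), 0.44 CPM (0.33 to 0.574) and 0.371 CPM (0.278 to 0.486). Fitted values were -0.22 log2 (SE 0.41, interval -1.10 to 0.66) for Trp against HFD and 0.02 (-0.86 to 0.90) for IPA against HFD. In FPKM, Ahr exceeded Ahrr by 13.0 to 23.7 times within a library.

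Tiparp, whose product modifies AHR and limits its activity (chr3:65528410-65555518, plus strand), was at 17.1, 25.6 and 24.4 CPM in HFD, 28.1, 23.7 and 23.4 CPM in IPA and 23.9, 22.1 and 19.2 CPM in Trp. The lowest library was HFD 1 and the highest IPA 1, and all groups overlapped. For Tiparp the log2 fold changes were -0.04 (SE 0.15, interval -0.37 to 0.28, adjusted p = 0.953) for Trp against HFD and 0.16 (-0.16 to 0.49, adjusted p = 0.736) for IPA against HFD. These intervals leave out a 2-fold change in either direction for Tiparp.

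Cyp1b1 encodes a monooxygenase that is a target of AHR and is known from pericytes and fibroblasts of brain vessels (chr17:79701537-79715061, minus strand). It was at 2.14, 1.70 and 3.44 CPM in HFD, 1.63, 2.1 and 1.02 CPM in IPA and 2.18, 2.87 and 1.79 CPM in Trp. HFD 3 was the highest and IPA 3 the lowest, and the groups overlapped. The log2 fold change for IPA against HFD was -0.62 (SE 0.32, interval -1.31 to 0.08, adjusted p = 0.52). It was -0.28 without HFD 3, -0.38 without IPA 3 and -0.87 without IPA 2. For Trp against HFD it was -0.09 (interval -0.77 to 0.59, adjusted p = 0.955).

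Markers of meningeal and vessel cells varied between the libraries as well. The sum of 6 meningeal fibroblast markers, led by Igf2 and Dcn, was 54.6, 36.9 and 112 CPM in HFD, 39.7, 72.8 and 50.2 CPM in IPA and 87.9, 56.2 and 36.3 CPM in Trp, highest in HFD 3 as for Cyp1b1. The sum of 6 mural markers, led by Rgs5 and Acta2, was 113 to 156 CPM in HFD, 96 to 109 CPM in IPA and 101 to 129 CPM in Trp. For 6 endothelial markers it was 145 to 160, 112 to 119 and 114 to 146 CPM. None of these 18 markers passed in any comparison. For IPA against HFD the median of the fibroblast markers was -1.11 log2, with 1 of 6 positive. It was -0.42 for the mural markers, with 1 of 6 positive, and -0.38 for the endothelial markers, with 0 of 6 positive. For Trp against HFD these medians were -0.53, -0.19 and -0.32, with 1, 2 and 1 of 6 positive. Igf2 weighed most in the fibroblast sum, with 906 to 3545 counts per library against 121 to 757 for Dcn. Per 1000 fibroblast marker counts, Cyp1b1 had 39.2, 45.9 and 30.8 counts in HFD, 41.0, 28.8 and 20.2 in IPA and 24.8, 51.1 and 49.4 in Trp, and these groups overlapped. The part of these cells in the Cyp1b1 values was not tested.

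Of 16 other AHR target genes, 10 were tested and 0 passed in any comparison, and Cyp1a2 and Gsta1 had 0 counts in every library. Cyp1a1, the classical induced enzyme, had 51 counts in all: 4, 11 and 4 in HFD, 7, 9 and 6 in IPA and 4, 0 and 6 in Trp. It was too low for the test. A library with 0 counts allows a level of up to its 3-count limit. The median log2 fold change of the 10 tested targets was 0.23 for Trp against HFD and 0.23 for IPA against HFD, with 7 and 6 of 10 positive.

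Among these targets the smallest p was that of Xdh, which encodes the purine-degrading xanthine dehydrogenase. Xdh was at 2.51, 4.16 and 3.61 CPM in HFD, 9.06, 13.9 and 7.71 CPM in IPA and 15.2, 17.0 and 6.85 CPM in Trp, with all HFD libraries below the other 6. Its log2 fold change was 1.92 (SE 0.37, adjusted p = 0.103, edgeR) for Trp against HFD and 1.58 (adjusted p = 0.28) for IPA against HFD. It passed for Trp with DESeq2 (adjusted p = 1.22e-07), with limma on log2(FPKM + 0.5) (0.0406) and log2(FPKM + 0.1) (0.0279), and with edgeR without Trp 3 (0.00668), and for IPA with DESeq2 (0.000234). The choroid plexus sum was 218, 136 and 704 CPM in HFD. It was 299, 1190 and 821 CPM in IPA and 1410, 607 and 36.9 CPM in Trp. Its part in the Xdh values was not tested. Socs2, a cytokine signalling inhibitor, was at 15.6 CPM in HFD, 12.8 CPM in IPA and 12.2 CPM in Trp without overlap of HFD and either group (adjusted p = 0.449 and 0.283). Ido1, which starts the kynurenine route of tryptophan breakdown, was at 5.48, 9.08 and 6.27 CPM in HFD, IPA and Trp (IPA against HFD 0.72, adjusted p = 0.48).

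Gpr84, the receptor for medium-chain fatty acids known from microglia and other myeloid cells (chr15:103308235-103310612, minus strand), had the smallest p of the 9 genes. It had 11, 13 and 9 counts in HFD, 16, 12 and 18 in IPA and 27, 29 and 36 in Trp. In CPM this was 0.236, 0.262 and 0.214, then 0.400, 0.296 and 0.426, then 0.526, 0.694 and 0.726. The 3 groups did not overlap and stood in the order HFD, IPA, Trp, with HFD and IPA only narrowly apart. HFD 2 at 0.262 CPM and IPA 2 at 0.296 CPM rest on 13 and 12 counts, a gap smaller than their counting error. All counts were above the limit of 3.

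The fitted log2 fold change of Gpr84 was 1.44 for Trp against HFD, or 2.71-fold (SE 0.36, interval 0.65 to 2.22, unadjusted p = 0.00174, adjusted p = 0.157, edgeR). Its p ranked 207 of 18690 genes, and the difference did not pass. It was 0.65 (SE 0.38, interval -0.17 to 1.47, adjusted p = 0.57) for IPA against HFD and 0.79 (SE 0.35, interval 0.03 to 1.55, unadjusted p = 0.0433, adjusted p = 0.987) for Trp against IPA. The summed counts of 33, 46 and 92 give 0.239 CPM (95% exact Poisson interval 0.164 to 0.335), 0.375 CPM (0.274 to 0.5) and 0.645 CPM (0.52 to 0.791). Over 18 alternatives the log2 fold change for Trp against HFD was 0.27 to 1.57 and the adjusted p 0.087 to 0.568, the smallest fold being that on log2(FPKM + 1). DESeq2 gave an unadjusted p of 0.00539.

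Microglia markers were higher in the same libraries. The sum of 10 markers was 221 to 240 CPM in HFD, 236 to 258 CPM in IPA and 327 to 427 CPM in Trp. All 10 were positive for Trp against HFD, the median being 0.65 log2, and 3 of 10 rose, among them C1qa, the most abundant, and Ctss. For IPA against HFD 7 of 10 were positive, with a median of 0.11, and 0 passed. Per 1000 counts of these markers, Gpr84 had 0.98, 1.19 and 0.921 counts in HFD, 1.62, 1.25 and 1.65 in IPA and 1.61, 1.96 and 1.70 in Trp. On this scale the HFD libraries were below all others, while IPA and Trp overlapped. HFD and IPA were barely apart: 1.19 in HFD 2 and 1.25 in IPA 2 rest on 13 and 12 counts of Gpr84. That gap is smaller than the counting error of so few reads. The sum of 6 peripheral myeloid markers was 3.21 to 4.54, 2.40 to 2.86 and 3.06 to 4.17 CPM in HFD, IPA and Trp, and S100a8, S100a9, Ccr2 and Ly6c2 had 0 counts in at least 1 library. The part of microglia in the Gpr84 difference was not tested.

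**Figure D4:**
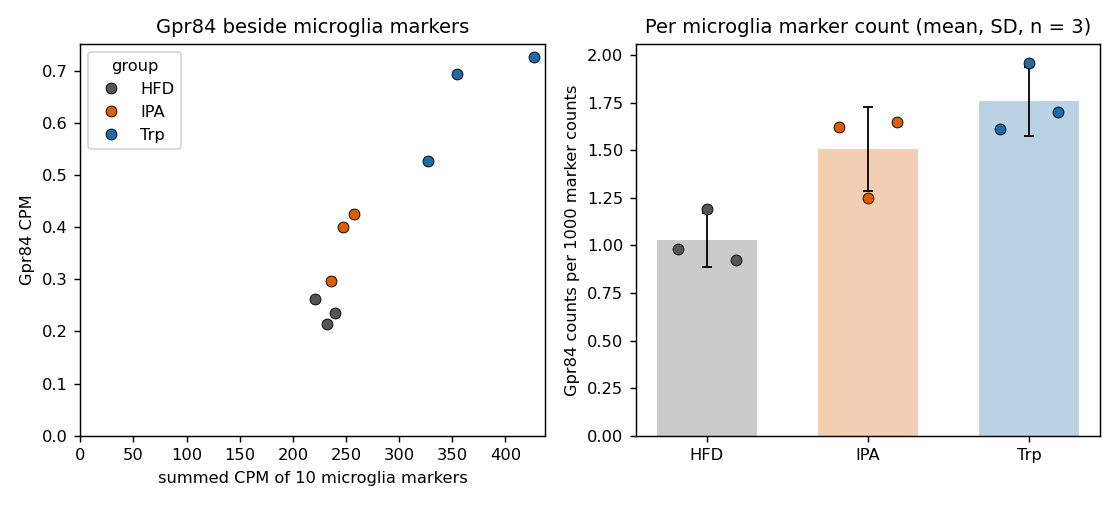
Left, Gpr84 CPM against the summed CPM of 10 microglia markers, 1 point per library. Right, Gpr84 counts per 1000 marker counts, with points for libraries, bars for means and error bars for SD (n = 3). The Trp libraries are highest on both axes at left. At right the HFD libraries, up to 1.19, lie below all others, narrowly so for IPA 2 at 1.25.

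The Gpr84 exons share 681 of 1725 bases (39.5%) with Gm49482, a gene on the other strand. Gm49482 had 0 counts in all 9 libraries, but the protocol describes no strand marking, so reads from either strand cannot be told apart. Smaller overlaps with other-strand genes were 5.12% of exon bases for Tiparp, 2.78% for Arnt2 and 2.06% for Ahr.

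Gpr35, the receptor for kynurenic acid (chr1:92950865-92986391, plus strand), had 13, 16 and 13 counts in HFD, 8, 4 and 10 in IPA and 19, 14 and 17 in Trp. In CPM it was 0.278, 0.323 and 0.309, then 0.200, 0.0986 and 0.236, then 0.370, 0.335 and 0.343. The groups did not overlap in CPM, with IPA lowest and Trp highest, but the margins were narrow. HFD 2 at 0.323 CPM and Trp 2 at 0.335 CPM rest on 16 and 14 counts. HFD 1 at 0.278 CPM and IPA 3 at 0.236 CPM rest on 13 and 10 counts. Both gaps are smaller than the counting error of so few reads. Gpr35 differed by -0.75 log2 (SE 0.45, interval -1.73 to 0.22, adjusted p = 0.576) between IPA and HFD, and by 0.96 (SE 0.44, interval -0.01 to 1.92, unadjusted p = 0.0512, adjusted p = 0.987) for Trp against IPA. It was 0.20 (interval -0.70 to 1.10, adjusted p = 0.907) for Trp against HFD. Without IPA 2 the difference between IPA and HFD was -0.468 (adjusted p = 0.792). The summed counts of 42, 22 and 50 give 0.304 CPM (95% exact Poisson interval 0.219 to 0.41), 0.179 CPM (0.112 to 0.271) and 0.35 CPM (0.26 to 0.462).

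Counts and FPKM ordered the libraries differently for Gpr35. FPKM was 0.0590, 0.116 and 0.105 in HFD, 0.0724, 0.0181 and 0.0610 in IPA and 0.209, 0.160 and 0.0779 in Trp, where HFD overlapped with both other groups. The FPKM that 1 CPM was worth differed by 3.08 times between libraries for Gpr35, against 1.39 times for Ffar3 and 1.11 to 1.29 times for the other 7 genes. Per 1000 microglia marker counts, Gpr35 had 1.16, 1.46 and 1.33 counts in HFD. It had 0.812, 0.418 and 0.916 in IPA and 1.13, 0.948 and 0.802 in Trp. On that scale Trp was narrowly below HFD and overlapped with IPA, while in CPM Trp was narrowly above HFD. Trp 1 at 1.13 and HFD 1 at 1.16 rest on 19 and 13 counts of Gpr35. That gap, like the gap in CPM, is smaller than the counting error.

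Ffar3, the short-chain fatty acid receptor named in the series title (chr7:30854330-30856178, minus strand), was at the edge of detection. It had 16, 19 and 0 counts in HFD, 4, 3 and 12 in IPA and 0, 3 and 6 in Trp. In HFD 3, Trp 1, Trp 2 and IPA 2 it was at or under the limit of 3 counts. The summed counts of 35, 19 and 9 give 0.253 CPM (95% exact Poisson interval 0.176 to 0.352), 0.155 CPM (0.0931 to 0.242) and 0.0631 CPM (0.0288 to 0.12). These intervals do not cover the spread between mice, since the HFD mean was 0.242 ± 0.211 CPM (SD, n = 3) with a library at 0, and all groups overlapped.

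The fitted log2 fold change of Ffar3 was -1.91 (SE 1.07, interval -4.26 to 0.44, adjusted p = 0.551) for Trp against HFD and -0.67 (SE 0.97, interval -2.79 to 1.45, adjusted p = 0.844) for IPA against HFD. On leaving out 1 library the value for Trp ran from -1.31 without Trp 1 (unadjusted p = 0.251) to -2.80 without Trp 3 (0.0756). It was -1.43 without HFD 2 (0.274) and -2.47 without HFD 3 (unadjusted p = 0.0109, adjusted p = 0.175). The value for IPA ran from -0.19 without HFD 2 to -1.47 without IPA 3, and it was -0.36 without HFD 1, -0.345 without IPA 2, -0.446 without IPA 1 and -1.23 without HFD 3 (adjusted p = 0.485). The interval for IPA holds a 2-fold difference in either direction. Among the 9 genes Ffar3 varied most between libraries, with a coefficient of variation of 95.2% in CPM.

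Of 12 other receptors for metabolites and indoles, 3 had enough counts to be tested and 0 passed in any comparison. Ffar1 and Nr1i2 had 0 counts in every library. Ffar2, the close relative of Ffar3, had 0 to 4 counts per library, Ffar4 0 to 6, Hcar2 0 to 3, Sucnr1 0 to 7, Gpbar1 0 to 3, Gpr119 0 to 9 and Gpr132 0 to 5. Hcar1, the lactate receptor, had 14, 20 and 26 counts in HFD, 12, 5 and 3 in IPA and 21, 13 and 14 in Trp, and HFD and IPA overlapped in CPM. Its log2 fold change for IPA against HFD was -1.41 (SE 0.54, unadjusted p = 0.022, adjusted p = 0.421). It was -2.15 without IPA 1, -1.04 without IPA 3 and -1.09 without HFD 3. Nr1i3, a nuclear receptor for foreign compounds, was at 0.321, 0.858 and 0.714 CPM in HFD, IPA and Trp, and Oxgr1, the 2-oxoglutarate receptor, at 0.237, 0.401 and 0.343 CPM, with adjusted p of at least 0.503 for both in all comparisons.

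For the 6 members with at least 10 counts in every library, the genes with the nearest profile were found by the root mean square distance of standardized log2 CPM over the 9 libraries. The median distance to all compared genes was 1.33 to 1.35. Each neighbour is the nearest of 11857 or 11858 genes over only 9 libraries. How near the closest of so many unrelated profiles would come was not tested. The Ahrr profile rests on 10 to 24 counts per library. Ahr was nearest to Abtb2 (0.412) and Plcxd2 (0.424), Arnt to Afg1l (0.406) and Ddhd2 (0.421), and Arnt2 to Sun1 (0.29) and Foxj2 (0.29). Ahrr was nearest to Nudt6 (0.405) and Fam241a (0.451), and Cyp1b1 to Slc22a4 (0.332) and Fbln5 (0.34). Tiparp had the nearest neighbour of any member, Zdbf2 at 0.237, followed by Rab23 at 0.282.

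The authors' deposited table tested 5 of the 9 genes and gave no value for Ahrr, Gpr35, Gpr84 and Ffar3. For Trp against HFD the authors' deposited table lists a log2 fold change of -0.2 for Ahr (q = 0.749), 0.18 for Arnt (q = 0.704) and -0.09 for Cyp1b1 (q = 0.98). For IPA against HFD the authors' deposited table lists -0.62 for Cyp1b1 (q = 0.61) and 0.17 for Tiparp (q = 0.827).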

How the data were processed

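Libraries were made from oligo(dT)-selected RNA with random hexamers, per the labels' protocols. StringTie 2.1.3b and mm10 appear in the submitters' processing notes. For the aligner, counter and annotation, the sources used here give no name. The authors deposited counts per gene, FPKM and, per the file headers, their own log2 fold change, p-value and q-value. Columns coded WTB, HEB and HOB were mapped to HFD, IPA and Trp through the labels, which do not explain the codes. Gene positions come from GENCODE M21 (GRCm38). The table gives the same chromosome and length for the 9 genes but other starts.

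Counts were tested in R 4.3.3 with edgeR 4.0.16 (filterByExpr with a minimum count of 10, TMM, robust quasi-likelihood fit of 1 mean per group over 9 libraries, two-sided). A Benjamini-Hochberg adjusted p under 0.05 over 18690 genes passed. CPM used TMM-adjusted library sizes. DESeq2 1.42.0 and limma 3.58.1 (on log2(FPKM + 0.5), with pseudocounts of 0.1 and 1 as well) were alternatives. Scripts were tested on simulated data. An exact permutation test of 3 against 3 cannot go below p = 0.1. It was planned for members that the filter left out, and there were 0. The members and lists were chosen with earlier results of these data known.

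Named genes were the 9 members, up to 3 per list by smallest unadjusted p plus any that passed, the 2 nearest profiles among genes averaging at least 1 FPKM, and up to 2 markers per cell type by FPKM. Some genes of the lists that this rule names are not reported here. Ctss, the untested list genes and the absent myeloid markers were named after their values were seen. Replicate numbers were not taken as pairs of libraries and only name them.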

Additional observations from a re-analysis of the deposited data

How the results depend on the processing

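No member that an alternative tested passed under it, whether another scaling, tool, filter or threshold, only the 6 compared libraries, a replicate block or leaving out each library. Ffar3 was not tested with only the 6 libraries of Trp against HFD or of Trp against IPA, and DESeq2 gave no adjusted p against HFD for Ahrr, Gpr35, Gpr84 and Ffar3. Of 667 single-gene values under alternatives, 615 kept their direction and side of the threshold (counting 10 DESeq2 values with no adjusted p, which kept their direction), 40 changed sign, and 12 changed side, all of these for Hif3a or Xdh. A filter at a mean FPKM of at least 5 left out 8 members and kept Arnt2. The calls over all genes for Trp against HFD moved from 64 to 289 with DESeq2, 97 without a filter, 30 with that FPKM filter, 8 with the 6 compared libraries and 13 (without Trp 2) to 323 (without HFD 3) on leaving out a library. In IPA against HFD they moved from 1 to 160 with DESeq2 and 52 without HFD 3.

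All sign changes were in values that did not pass. On log2(FPKM + 0.5), + 0.1 and + 1, Arnt for IPA against HFD was at 0.096, 0.108 and 0.085, Arnt2 for Trp against HFD at 0.005 each time, Tiparp for Trp against HFD at 0.04, 0.045 and 0.036, Cyp1b1 for Trp against HFD at 0.049, 0.087 and 0.031, Ahrr for IPA against HFD at -0.003, -0.018 and -0.001, and Ahr for Trp against IPA at 0.039, 0.051 and 0.03. Arnt for IPA against HFD was also at 0.004 with RLE scaling and 0.003 with the 6 libraries. On leaving out each library, the range was -0.03 to 0.037 for Arnt, -0.088 to 0.11 for Arnt2 and -0.209 to 0.305 for Ahrr (IPA against HFD), -0.197 to 0 for Arnt2, -0.205 to 0.066 for Tiparp and -0.291 to 0.249 for Cyp1b1 (Trp against HFD), and -0.116 to 0.037 for Ahr (Trp against IPA). The cause was not tested.

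With a replicate block, 23, 0 and 0 genes passed in the 3 comparisons against 64, 1 and 0 without it, 0 of them members, Hif3a had an adjusted p of 0.0541, Arnt for IPA against HFD was at 0 and Ahrr at -0.032. Same-numbered libraries correlated between -0.196 and 0.0479 in their deviations. In both other groups, 0 of 9 libraries correlated best with their own number. Few libraries would meet this without pairing, so that count alone does not decide the question. The numbers are not taken as pairs. The fold changes of Ffar3, Gpr35, Gpr84 and Ahrr rest on 0 to 36 counts per library.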
